A study of Mus musculus with 8 samples.

Results

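Arginase and the enzymes of polyamine synthesis were followed in mouse lumbar dorsal root ganglia after spinal nerve ligation. The set holds 7 named genes of the 53801 in the count table: the arginases Arg1 and Arg2, ornithine decarboxylase (Odc1), spermidine synthase (Srm), spermine synthase (Sms), S-adenosylmethionine decarboxylase (Amd1) and spermidine/spermine acetyltransferase (Sat1). They were taken by name and all 7 were found in the table. Arginase splits arginine into urea and ornithine, Odc1 turns ornithine into putrescine, and Srm and Sms add aminopropyl groups, supplied through Amd1, to make spermidine and spermine. Sat1 acetylates the higher polyamines and starts their breakdown or export. Polyamines are small cations that bind RNA and DNA, spermidine is the source of the hypusine residue of the translation factor eIF5A, and in cultured sensory neurons Arg1 and polyamines are known for promoting neurite growth past inhibitors in myelin. Arg1 is also a well-known gene of macrophages in wounds.

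Per the labels, male C57BL/6J mice had the left L4 spinal nerve tied tightly. The 3 lumbar ganglia from L3 to L5 were taken from each side, so 2 of the 3 ganglia of an injured-side library belong to nerves that were not tied. Each library is RNA pooled from 3 mice. The injured group holds 1 library each at days 1, 3 and 7 after ligation, the contralateral group holds the other side of the same mice at the same days, and 1 further pool labelled no injury gave a left and a right library. Both titles of the pool labelled no injury also carry WT, a mark that no title of an operated library carries. The protocol also describes sham surgery, but no library is labelled sham. No day has a second pool, so a value at a single day has no replicate and a p-value reflects only how these pools varied. The 3 injured pools differ in day, so the spread behind the SE of the injury effect includes any change over time.

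Total counts were 20488115 to 21652688 per library. Values are given as CPM, the usual scaling of read counts by the library's total. A count of 0 allows up to 3 reads, about 0.14 CPM, by counting error only. The summed axotomised-neuron markers (Atf3, Sprr1a, Gal, Npy, Csf1, Gadd45a and Sox11) stood at 839 to 2659 CPM in the injured libraries, 275 to 585 CPM in the contralateral ones and 69.9 and 75.0 CPM without injury. The summed sensory neuron markers were at 20584 to 23925 CPM in every library. The pool labelled no injury went against the labelled sex: Xist had 4931 and 4129 reads there and at most 3 in each operated library, so sex and injury cannot be told apart in comparisons with it. The contralateral library of day 1 stood apart with 528 CPM of summed neutrophil and marrow precursor markers, against 24.1 to 280 CPM in the others. The right library labelled no injury stood apart with 1118 CPM of summed skeletal muscle markers, against 15.5 to 158 CPM.

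Without injury the genes differed widely in level when set per kilobase of annotated exon. As the mean of that pool's left and right libraries, Srm was highest at 21.7 CPM per kb, followed by Sms at 13.0, Sat1 at 12.4, Odc1 at 6.62, Arg2 at 3.75, Amd1 at 2.96 and Arg1 at 0.0965 CPM per kb. The left and right values of Sms (13.6 and 12.4) overlapped those of Sat1 (12.7 and 12.0), so those neighbours did not differ beyond their spread. On the injured side at day 3 Arg1 reached 14.9 CPM per kb, level with Odc1 at 14.9 and above Sms at 13.3.

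Of the 7 genes, promoter windows were at hand for 4 (Odc1, Sms, Amd1 and Sat1) from RefSeq, GRCm38.p6. The 250 bases before each annotated start were searched for 4 motifs that read the same on both strands, none of which contains another. CACGTG is the E-box bound by MYC and related factors, TGACGTCA is the cAMP response element, TGANTCA is an AP-1 motif and TTCNNNGAA is a STAT motif. Sms had 2 windows, for 2 annotated starts, and the others 1 each. The only match was a CACGTG in 1 window of Sms; its other window, at the downstream start, had none. That motif was in 6.02% of all 32851 RefSeq windows of this length, against 1.55% for TGACGTCA, 6.75% for TGANTCA and 7.02% for TTCNNNGAA. The sequences of Odc1, whose call held without any single pool, and of Sms, the one with the match, are shown 5′ to 3′ with motif letters in capitals. Odc1 is shown only up to the first base that GENCODE assigns to the gene (chr12:17544623-17544793, plus strand) and Sms over the 250 bases before the start whose window holds the match (chrX:157492288-157492537, minus strand).
Odc1: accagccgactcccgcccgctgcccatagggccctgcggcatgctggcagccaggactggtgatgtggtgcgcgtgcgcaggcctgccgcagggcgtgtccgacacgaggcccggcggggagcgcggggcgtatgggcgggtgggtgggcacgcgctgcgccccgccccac
Sms: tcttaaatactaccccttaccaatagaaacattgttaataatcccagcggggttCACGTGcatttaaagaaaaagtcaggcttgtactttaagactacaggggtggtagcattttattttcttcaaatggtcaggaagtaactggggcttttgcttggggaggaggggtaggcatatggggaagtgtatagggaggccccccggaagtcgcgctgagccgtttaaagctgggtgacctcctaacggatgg

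The first question was which steps of the pathway differed between the injured and the uninjured side of the same mice. Arg1 and Odc1 were higher on the injured side, by 5.19-fold and 1.77-fold in the fit, and the other 5 genes did not pass. That is 2 of 7 higher and 0 of 7 lower by edgeR's quasi-likelihood test at an adjusted p under 0.05, beside 10.1% of all 16244 genes tested called higher and 8.02% called lower (18.1% in all). All 7 passed the filter on low counts, and the set was chosen with earlier results of these data known. Their median log2 fold change was 0.21, against 0.02 over all genes tested. In plain CPM the 3 injured libraries lay above all 5 others for these 2 genes, a pattern found in 11.5% of genes tested, and below all others for none of the 7 (12.9% of genes tested).

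Arg1 (chromosome 10, 24915221 to 24927484, minus strand, GRCm38), the cytosolic arginase, showed the widest range. The injured libraries held 5.52, 33.2 and 2.94 CPM at days 1, 3 and 7 (113, 701 and 62 reads). The contralateral libraries held 1.36, 2.57 and 1.55 CPM (29, 55 and 33 reads). The left and right libraries without injury held 0.337 and 0.0924 CPM (7 and 2 reads). Every injured library was thus above every other, and day 3 was above all, while the injured library of day 7 was only just above the contralateral one of day 3. The injured side was 4.05-fold above the contralateral side at day 1 (95% interval of the read counts 2.67 to 6.32), 12.9-fold at day 3 (9.79 to 17.3) and 1.89-fold at day 7 (1.22 to 2.98). These exact binomial intervals cover counting error only. Set against the summed libraries without injury, which rest on 9 reads, the injured libraries were 26.0-, 156- and 13.8-fold higher at days 1, 3 and 7.

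The fitted injury effect of Arg1 was a log2 fold change of 2.38 ± 0.57 (SE, 3 injured pools; edgeR adjusted p = 0.0483), higher in 3 of 3 pools. This call is close to the threshold. It is lost without the pool of day 3 (log2 1.49, adjusted p = 0.0765), without the pool of day 1 (2.64, adjusted p = 0.16), without the pool labelled no injury (2.39, adjusted p = 0.0679) and without the filter on low counts (2.37, adjusted p = 0.2), but holds without day 7 and with DESeq2 (adjusted p = 0.0471 and 0.0198). These settings called 5.99%, 28.3%, 7.57%, 10.8%, 3.85% and 15.6% of their genes, in this order. The value of Arg1 also moved with the design: it was 3.53 with no block for the pool (edgeR adjusted p = 0.0468; 17.9% of genes called) and 5.98 against the uninjured libraries alone, where the call is lost (adjusted p = 0.0814; 6.99% called).

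**Figure D1:**
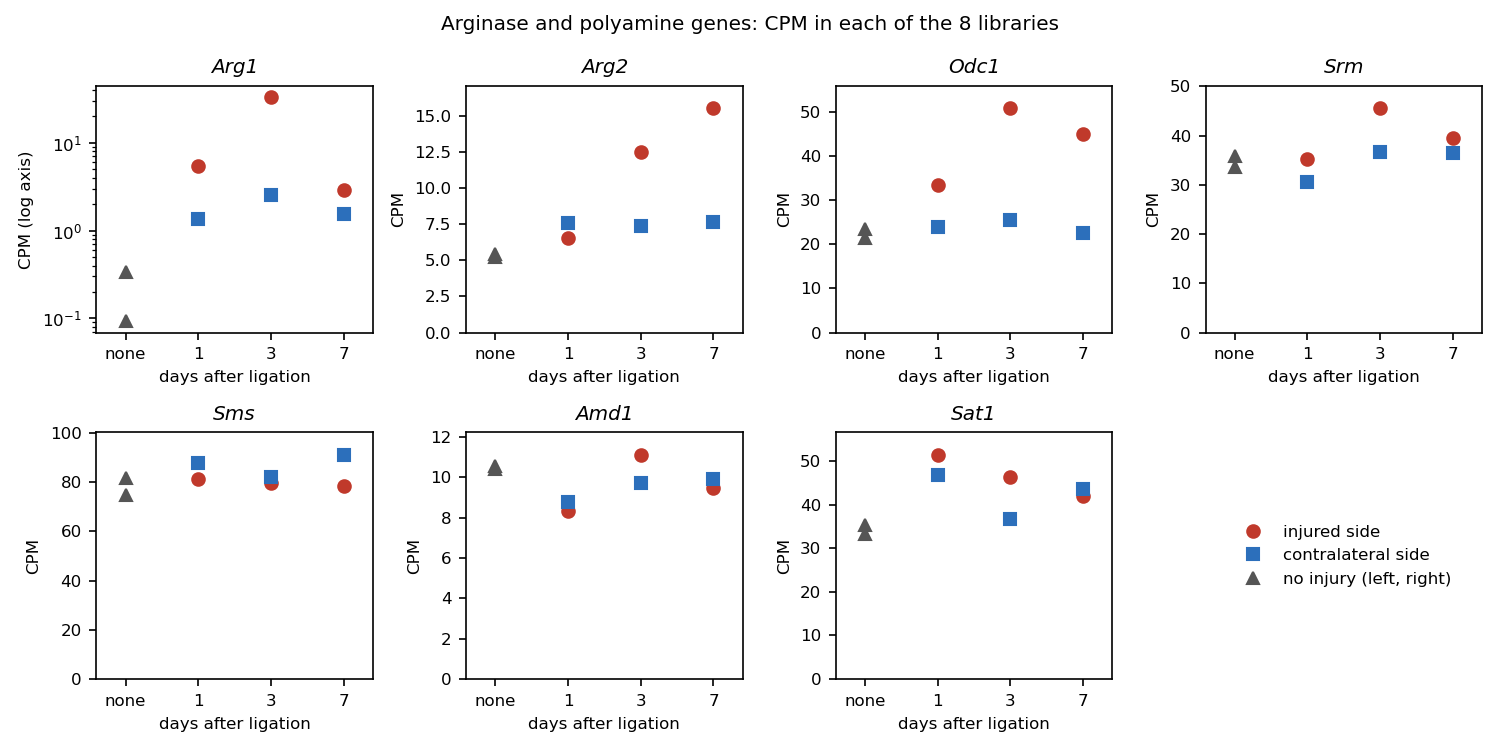
CPM of each of the 7 genes in each of the 8 libraries, by days after ligation, with the pool labelled no injury at the left of each panel; each point is 1 library of 3 pooled mice, and the axis of Arg1 is logarithmic. Arg1 peaks at 33.2 CPM at day 3, the injured libraries of Odc1 sit between 33.4 and 50.7 CPM above all others, and the sides cross or lie close for Sms, Amd1 and Sat1.

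Odc1 (chromosome 12, 17544794 to 17551505, plus strand), which encodes the enzyme that commits ornithine to polyamine synthesis, had the smaller spread of side ratios over the 3 days of the 2 called genes (SD of the log2 ratio 0.27, against 1.37 for Arg1). Its injured libraries were at 33.4, 50.7 and 45.1 CPM at days 1, 3 and 7. The contralateral libraries were at 23.9, 25.4 and 22.6 CPM and those without injury at 21.5 and 23.6 CPM. The contralateral libraries thus lay within the range without injury at day 7 and above it at days 1 and 3. The injured side was 1.39-fold (1.24 to 1.57), 2.00-fold (1.80 to 2.22) and 1.99-fold (1.78 to 2.23) above it at days 1, 3 and 7, with counting intervals in parentheses. Its fitted log2 fold change was 0.82 ± 0.10 (SE, 3 injured pools; edgeR adjusted p = 0.0038), higher in 3 of 3 pools. Leaving out any single pool kept the call, with log2 values from 0.73 to 0.97.

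Every injured library was from the left and every contralateral one from the right. Only the pool labelled no injury separates side from injury. With anatomical side as a further term, Odc1 had a larger value (0.97 ± 0.22, adjusted p = 0.415) and Arg1 a smaller one (0.56 ± 2.92, adjusted p = 0.962), and neither was called; only 6 genes of the table (0.0369%) were called in that fit, all higher. For Arg1 the smaller value rests on the 7 left and 2 right reads of that pool, whose right library is the one with high muscle markers. Its left library had more of the summed neutrophil and marrow precursor markers (280 against 75.9 CPM) and macrophage markers (261 against 182 CPM).

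Arg2 (chromosome 12, 79130777 to 79156301, plus strand), the mitochondrial arginase, differed from Arg1 in its course. The injured libraries held 6.54, 12.5 and 15.5 CPM at days 1, 3 and 7. The contralateral libraries held 7.61, 7.39 and 7.67 CPM, and those without injury 5.45 and 5.26 CPM. At day 1 the injured side was thus below the contralateral side, with a ratio of 0.860 whose counting interval (0.679 to 1.09) includes 1, and at days 3 and 7 it was above, by 1.69-fold (1.38 to 2.07) and 2.02-fold (1.67 to 2.46). Over the 3 pools the log2 fold change was 0.53 ± 0.22 (SE; edgeR adjusted p = 0.133). Without the pool of day 1 it was 0.86 ± 0.13 and passed (adjusted p = 0.00123), in a setting that called 28.3% of its genes. It passed in no other setting, with an edgeR adjusted p of 0.515 without day 7 and 0.401 without day 3. DESeq2 gave an adjusted p of 0.163. The gene overlaps Vti1b on the other strand, whose level ran from 96.4 to 112 CPM, lowest in the injured library of day 7; whether reads were counted by strand is not stated, so those of the overlap cannot be told apart.

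None of the enzymes after Odc1 passed the test. Srm (chromosome 4, 148591503 to 148594993, plus strand) was at 35.2, 45.5 and 39.4 CPM in the injured libraries and 30.6, 36.6 and 36.5 CPM in the contralateral ones at days 1, 3 and 7, with 33.6 and 35.8 CPM without injury. Its injured value was the higher of the pair at each day, but the groups overlapped. The log2 fold change was 0.21 ± 0.06 (SE; edgeR adjusted p = 0.0629), just outside the threshold in this fit. It was further outside with DESeq2 (adjusted p = 0.206) and with no block for the pool (edgeR adjusted p = 0.13). Sms (X chromosome, 157443855 to 157492287, minus strand) was at 81.4, 79.8 and 78.5 CPM in the injured libraries and 87.7, 82.0 and 91.0 CPM in the contralateral ones, with 81.5 and 74.8 CPM without injury. Here the injured value was the lower of the pair at each day, with a log2 fold change of -0.12 ± 0.06 (adjusted p = 0.171).

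Amd1 (chromosome 10, 40287458 to 40302186, minus strand), whose product supplies the aminopropyl groups, was the lowest of the synthesis enzymes per kilobase of exon. It was at 8.35, 11.1 and 9.47 CPM in the injured libraries, 8.78, 9.73 and 9.93 CPM in the contralateral ones and 10.6 and 10.4 CPM without injury. The sign of its side difference was not the same at each day (log2 0.01 ± 0.10, SE; edgeR adjusted p = 0.939). Its copy Amd2 had at most 2 reads in a library and 5 named Amd pseudogenes at most 3, so few reads were assigned to copies. The rule for multi-mapping reads was not given, so whether reads shared with copies are missing from the level of Amd1 is not known. Sat1 (X chromosome, 155213132 to 155216449, minus strand) was at 51.4, 46.4 and 41.9 CPM in the injured libraries, 46.9, 36.8 and 43.6 CPM in the contralateral ones and 35.3 and 33.3 CPM without injury. The sides overlapped, with a log2 fold change of 0.13 ± 0.08 (SE; edgeR adjusted p = 0.258). All 6 operated libraries were above both uninjured ones, a pattern whose share over all genes tested was not counted. The uninjured pool expressed Xist, so sex and injury cannot be told apart in that pattern.

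**Figure D2:**
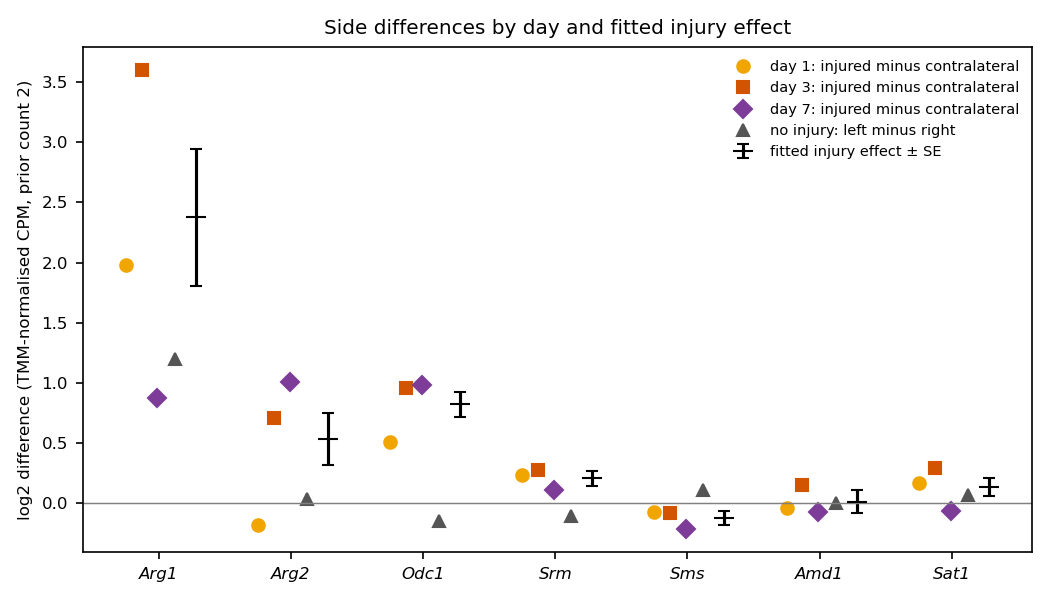
Log2 difference between the sides for each gene and day (TMM-normalised CPM with a prior count of 2), beside the left-right difference of the pool labelled no injury and the fitted injury effect with its SE. Odc1 lies between 0.51 and 0.99 at all 3 days, Arg1 between 0.87 and 3.60, Arg2 crosses 0, and Sms lies below 0 at each day.

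The next question was whether the side difference changed with time. Among the side ratios of the 7 genes at each of 3 days, 3 were 2-fold or more on the log2 scale with a prior count of 2: Arg1 at days 1 and 3, and Arg2 at day 7. Over all genes tested the share at least 2-fold higher was 1.8%, 7.62% and 3.77% at days 1, 3 and 7, and the share at least 2-fold lower, which held none of the 7, was 2.57%, 1.91% and 1.37%. The injured side was above at all 3 days for Arg1, Odc1 and Srm (28.4% of genes tested) and below for Sms (25.4%). In a fit of the side difference against log2 days, none of the 7 genes passed. Nor did any gene of the table by edgeR (0% called), with 1299 genes at an unadjusted p under 0.05. DESeq2 called 48 genes (0.295%), not among them Odc1, Srm, Sms and Sat1, and gave no adjusted p for Arg1, Arg2 and Amd1. Arg2 had a slope of 0.43 ± 0.10 per doubling of days (SE; edgeR unadjusted p = 0.00291, adjusted p = 0.303) and Odc1 0.18 ± 0.06 (unadjusted p = 0.0283, adjusted p = 0.581). The slope of Arg1 was -0.31 ± 0.60 (adjusted p = 0.951), and a straight slope cannot describe a peak at day 3. Without the pool of day 7 its slope was 1.01 (adjusted p = 0.0519) and without the pool of day 1 it was -2.22 (adjusted p = 0.0241). Without the pool of day 3 the slope of Arg2 passed (0.43, adjusted p = 0.0293). Without day 7, day 1 and day 3 the trend was called in 7.41%, 0.57% and 3.16% of all genes tested, on 1 residual degree of freedom.

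The contralateral ganglia were then set against the pool labelled no injury. This comparison and the injury effect both use the contralateral libraries and are not independent. In CPM the 3 contralateral libraries were above both uninjured ones for 4 of the 7 genes, Arg1, Arg2, Sms and Sat1 (17.9% of genes tested), and below them for Amd1 (19.5%). Arg1 was 6.42-, 12.1- and 7.32-fold above the uninjured level, which rests on few reads, at days 1, 3 and 7. With the uninjured pool as 1 sample, none of the 7 passed, beside 0.124% of 16181 genes called by edgeR in either direction; 855 genes had an unadjusted p under 0.05 and DESeq2 called 64 (0.396%), none of them among the 7. By direction edgeR called 0.0865% higher and 0.0371% lower. The log2 differences were 3.08 ± 1.86 for Arg1, 0.50 ± 0.40 for Arg2 and 0.31 ± 0.17 for Sat1 (SE; edgeR adjusted p = 0.9997 for each). The axotomised-neuron markers had a median log2 of 3.10 in this comparison, with Atf3 called higher. The uninjured pool expressed Xist, so sex and injury cannot be told apart here for any gene. Sms and Sat1 lie on the X chromosome.

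Markers of other cells were compared with the course of Arg1. The 20 macrophage genes summed to 144, 527 and 513 CPM in the injured libraries at days 1, 3 and 7, to 217, 153 and 254 CPM in the contralateral ones and to 261 and 182 CPM without injury. Of these 20 genes, 6 rose in the injury effect, among them Cd14 and Gpnmb, and none was at 0 in any library. At day 1, where Arg1 was 4.05-fold higher on the injured side, the summed macrophage level was lower there than on the contralateral side. Still, 12 of the 20 genes were higher there. Cd163 and Cd14 had the highest log2 side ratios (0.80 each), while C1qa and Csf1r were near 0 (0.01 each). The other genes were lower, among them Adgre1 (-0.26), Cx3cr1 (-0.28) and Itgam (-0.44). The share of all genes tested that were higher at day 1 was not counted. The genes with the lowest ratios were Chil3 (-3.30) and Lyz2 (-1.13), in the pair whose contralateral library held 528 CPM of neutrophil and marrow markers (S100a8 had a ratio of -4.39). At days 3 and 7, 20 and 18 of the 20 genes were higher on the injured side. On the injured side the macrophage sum of day 7 was near that of day 3, while Arg1 was at 2.94 CPM against 33.2. The contralateral macrophage sum was 153 CPM at day 3 and 254 CPM at day 7. From day 3 to day 7 the log2 side ratio went from 3.60 to 0.87 for Arg1. It also fell for most of the 20 macrophage genes, among them Cd68 (2.68 to 0.78) and Itgam (2.34 to 0.58). It stayed about level for Cx3cr1 (1.46 and 1.47), Gpnmb (1.15 at both days) and Cd163 (1.08 and 1.02). It rose slightly for Lyve1 (0.26 to 0.34). The 15 cell cycle genes summed to 40.4, 113 and 82.1 CPM in the injured libraries and 101, 45.7 and 55.5 CPM in the contralateral ones, with 59.2 and 47.4 CPM without injury, and 0 of 15 were called. The 8 fibroblast genes summed to 776, 2283 and 1669 CPM against 530, 733 and 1147 CPM, with 1545 and 1359 CPM without injury, and 4 of 8 were called higher. The part of these cells in the level of Arg1 was not tested, and in whole ganglia fewer cells of a type and less RNA per cell cannot be told apart.

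**Figure D3:**
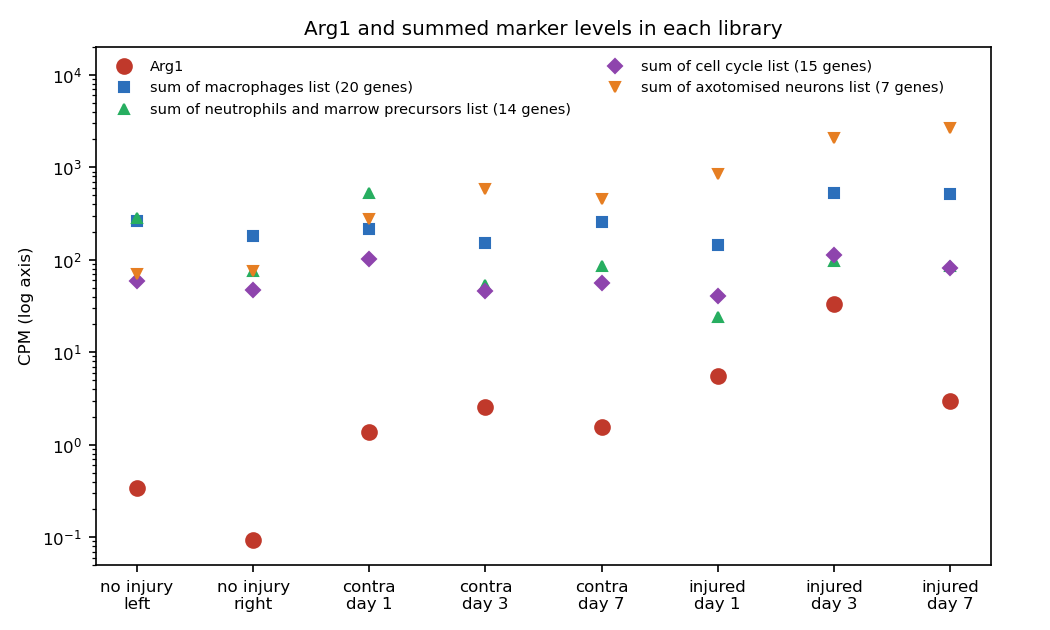
Level of Arg1 and the summed level of 4 marker lists in each library, in CPM on a log axis; each point is 1 library, and contra stands for the contralateral side. Arg1 is highest on the injured side at day 3, the macrophage sum is near 500 CPM there at both day 3 and day 7, and the neutrophil and marrow sum peaks at 528 CPM in the contralateral library of day 1.

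Odc1 is controlled by antizymes, which bind the enzyme and send it to the proteasome, and by antizyme inhibitors, which are inactive relatives of Odc1 that capture antizyme. Of this list of 5 genes, 4 were tested and both antizyme inhibitors rose. Azin1 was at 406, 480 and 414 CPM in the injured libraries at days 1, 3 and 7, at 303, 314 and 304 CPM in the contralateral ones and at 267 and 264 CPM without injury. Azin2 was at 162, 164 and 178 CPM, at 129, 123 and 118 CPM and at 105 and 108 CPM. In both genes the 3 injured libraries lay above all 5 others, as in 11.5% of genes tested. The 3 contralateral libraries lay above both uninjured ones, as in 17.9%. Their log2 fold changes were 0.49 ± 0.06 and 0.44 ± 0.06 (SE; edgeR adjusted p = 0.00334 and 0.00542), and both stayed called with any single pool left out. The antizyme genes Oaz1 and Oaz2 had values of -0.16 ± 0.07 and 0.10 ± 0.05 and were not called (adjusted p = 0.162 and 0.209). Oaz3 was not tested, with at most 0.0964 CPM in a library.

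In the list of arginine and ornithine handling, 4 of 12 genes tested rose and 0 fell, with a median log2 of 0.16. The cationic amino acid transporters Slc7a1 and Slc7a3, which carry arginine into cells, rose by 0.29 ± 0.08 and 0.63 ± 0.15 (log2, SE). Slc7a1 reached 192, 210 and 252 CPM in the injured libraries and 173, 182 and 177 CPM in the contralateral ones. Slc7a3 was at 11.8, 9.13 and 11.9 CPM against 6.81, 7.72 and 6.54 CPM. Aldh18a1, which makes the precursor of proline and ornithine from glutamate, rose by 0.34 ± 0.08, and ornithine aminotransferase (Oat), which links ornithine to that same precursor, by 0.21 ± 0.05. The related transporter gene Slc7a2 had a value of -0.05 ± 0.06 and argininosuccinate synthase (Ass1) of -0.24 ± 0.09 (edgeR adjusted p = 0.578 and 0.118).

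Among 3 genes of back-conversion and oxidation, spermine oxidase (Smox), which turns spermine back into spermidine, rose by 0.32 ± 0.06 on the log2 scale. It was at 36.9, 44.3 and 47.5 CPM in the injured libraries and 32.4, 34.0 and 35.8 CPM in the contralateral ones, with 32.3 and 32.2 CPM without injury. Paox and Sat2 were not called (-0.19 ± 0.16 and -0.21 ± 0.14). In the list of methionine adenosyltransferases and methylthioadenosine salvage, 1 of 8 tested rose and 2 fell: Ahcy, which hydrolyses S-adenosylhomocysteine, rose by 0.37 ± 0.10, Mat2b, the regulatory subunit of methionine adenosyltransferase, fell by 0.28, and the salvage enzyme Enoph1 fell by 0.30. Mtap, the first salvage enzyme, had a value of -0.25 ± 0.09 (edgeR adjusted p = 0.0949).

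Of 7 transport genes tested, 2 rose. Slc3a2, the heavy chain of several amino acid transporters, was at 180, 174 and 171 CPM in the injured libraries, 152, 133 and 128 CPM in the contralateral ones and 105 and 117 CPM without injury, a log2 fold change of 0.35 ± 0.06 (SE). Atp13a3, a P-type ATPase linked to polyamine uptake, rose by 0.33 ± 0.07, and its lysosomal relative Atp13a2 had a value of -0.02 ± 0.07. Of the 4 hypusination genes, 2 rose and 1 fell. The eIF5A gene Eif5a rose by 0.26 ± 0.06 and the deoxyhypusine synthase gene Dhps by 0.21 ± 0.06. The second eIF5A gene, Eif5a2, fell by 0.37 (SE 0.08), with 352, 283 and 267 CPM in the injured libraries, 400, 379 and 376 CPM in the contralateral ones and 371 and 363 CPM without injury. The eIF5A genes thus moved in opposite directions.

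Over these 6 lists together, 38 of 43 genes were tested, and 12 rose and 3 fell, 31.6% and 7.89%, beside 10.1% and 8.02% of all genes tested. The median log2 was 0.05. The lists were chosen with earlier results of these data known, so these shares are descriptions. All 15 called genes kept their direction whichever pool was left out. The calls themselves were less steady: without the pool of day 7 only Azin1 and Azin2 stayed called, without day 3 those 2 with Slc7a3 and Aldh18a1, without the pool labelled no injury those 2 with Smox and Slc3a2, and without day 1 all 15. With anatomical side as a further term none of the 15 was called. DESeq2 kept 12 of the 15, without Ahcy, Dhps and Enoph1 (adjusted p = 0.138, 0.128 and 0.0634), and without the count filter edgeR lost Dhps (adjusted p = 0.0578). Against the uninjured libraries alone 7 of the 15 stayed called.

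**Figure D4:**
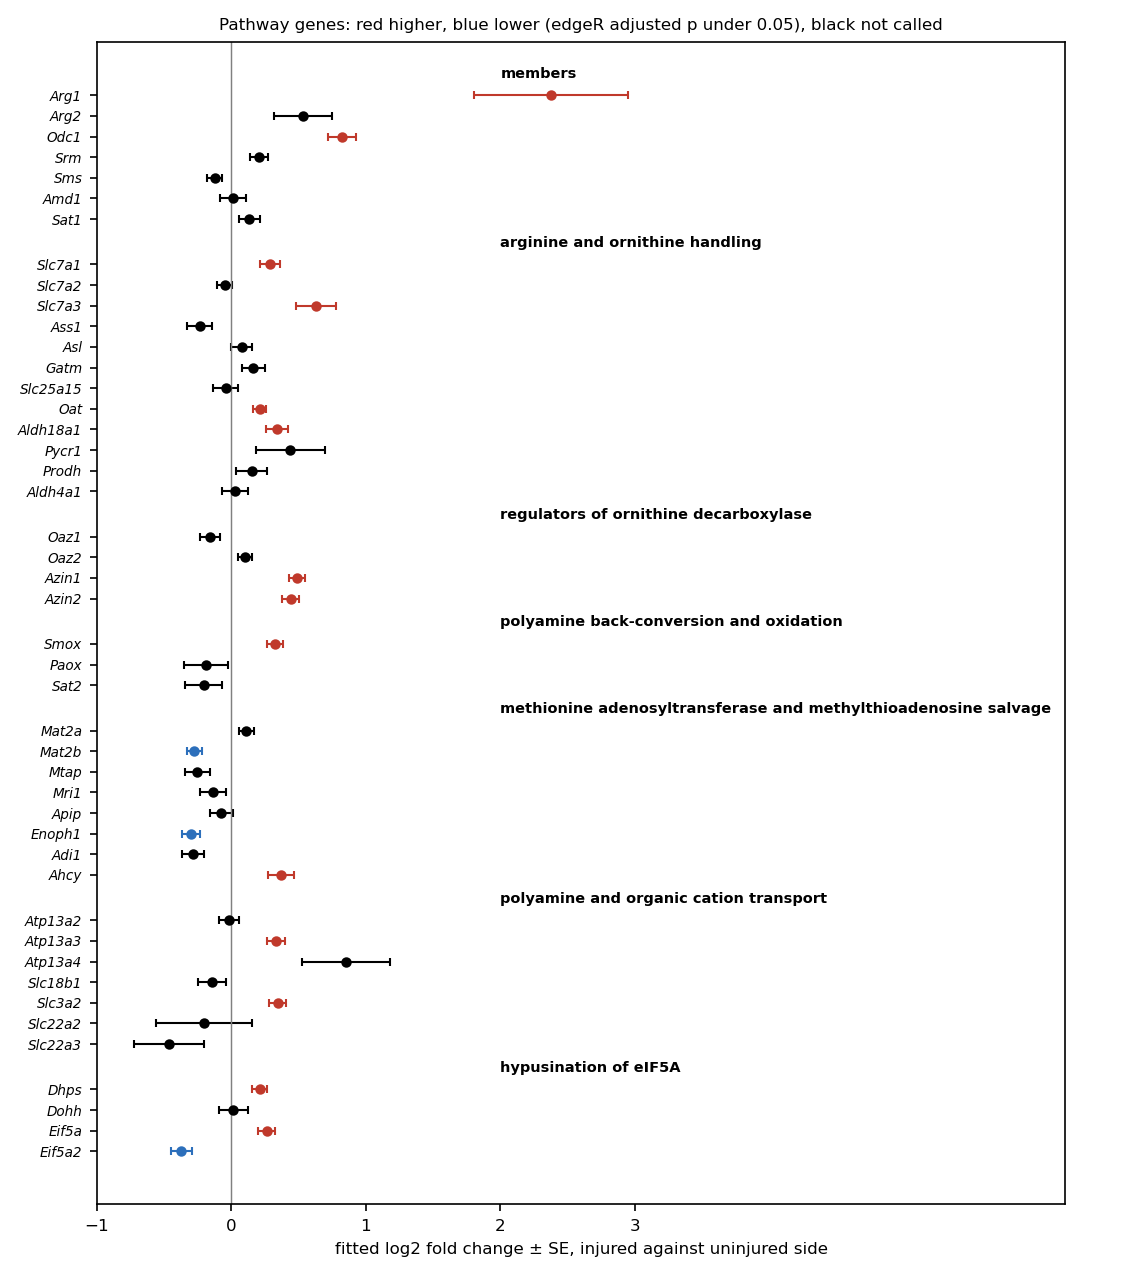
Fitted log2 fold change with its SE for the 7 genes (members) and 38 other tested genes of the pathway, grouped by list, injured against uninjured side. Red points are higher and blue points lower at an edgeR adjusted p under 0.05, and black points were not called; Arg1 and Odc1 are the largest of the called values.

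The genes whose levels ran most like those of Arg1 and Odc1 were sought among 14251 protein-coding genes by Pearson's r of log2 CPM over the 8 libraries. For Odc1 these were Plod3, a lysyl hydroxylase of collagen (r = 0.995), Rcan1, an inhibitor of calcineurin (0.994), and Cdc42ep2 (0.993), among 828 genes with r over 0.9. Plod3 was at 69.2, 93.5 and 80.3 CPM in the injured libraries and 48.7 to 55.7 CPM in the other libraries. For Arg1 they were Cfap54 (0.990), the proteasome subunit gene Psmc1 (0.976) and St14 (0.967), among 158 genes. Cfap54 and St14 rest on 15 to 60 reads per library, and Psmc1 ran only from 164 to 189 CPM. These 8 points share pools and sides, so the values are descriptions. Between the 2 called genes r was 0.80, between Odc1 and Arg2 0.84 and between Odc1 and Srm 0.79.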

How the data were processed

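RNA sequencing counts of 8 libraries were used, all 8 columns of 1 table. The values are whole-number read counts per Ensembl gene as deposited. The submitters' processing notes list GRCm38, DESeq2, featureCounts 1.6.3, STAR 2.5.4a and cutadapt 1.16 without saying what each did. The strand setting, the annotation release and the rule for multi-mapping reads were not given in the sources used here. Names, positions and exon lengths came from GENCODE M21 (GRCm38; 53706 gene IDs matched). Depth was 20488115 to 21652688 counts per library.

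Genes passing filterByExpr (minimum count 10) were tested with the robust quasi-likelihood method of edgeR 4.0.16 (R 4.3.3) after TMM scaling (factors 0.978 to 1.02). Adjusted p-values are Benjamini-Hochberg values over all genes tested, with a threshold of 0.05. For the injury effect the 8 libraries were fitted with a block for their pool (3 residual degrees of freedom), because both sides come from the same mice per the design text. At days 1, 3 and 7 the deviations of the sides correlated by 0.249, -0.0618 and 0.356. The trend added injured state by centred log2 day (2 degrees of freedom). The contralateral comparison fitted 7 samples, with the uninjured libraries summed to 1 (4 degrees of freedom). SEs are the log2 value over the root of F. Side ratios used a prior count of 2. Alternatives were other size factors, no count filter, DESeq2 1.42.0, other designs and each pool left out. No 2 libraries agreed within sampling noise (lowest chi-square per gene 6.46). Scripts were tested on simulated counts.

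The members and lists were chosen with earlier results of these data known. The genes named are the 7 members, every called gene of the 6 pathway lists and the 3 most similar genes of each called member; genes named as not called, Vti1b, Xist, Amd2 and single marker genes were chosen after their values were seen. Marker lists covered 13 cell types or states. Called genes in the injury effect were 7 of 7 for axotomised neurons (higher), 4 of 10 for sensory neurons (lower), 6 of 20 for macrophages, 4 of 8 each for satellite glia and fibroblasts, 1 of 8 for endothelial and mural cells (all higher), 1 of 3 tested for lymphocytes (lower), and 0 for neutrophils and marrow, erythroid cells, myelinating Schwann cells, skeletal muscle, adipocytes and cell cycle.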

Additional observations from a re-analysis of the deposited data

How the results depend on the processing

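With the pool as a block the injury effect called 2946 genes, and with no replicate block 2902, 2 of the 7 members in each; among the 7 members and the 15 called pathway genes, whose calls were compared, it changed that of Mat2b (log2 -0.25, adjusted p = 0.0708 by edgeR). Leaving out 1 pool at a time gave 631 (without day 7), 985 (day 3), 4669 (day 1) and 1212 genes (no injury), a range of 631 to 4669, and 1 to 2 members, anatomical side as a further term 6 genes and 0 members, the uninjured libraries alone as controls 1145 genes and 1 member, and no count filter 1 member. For the trend, where 0 genes were called, other size factors (RLE) gave 9, no filter 32 and DESeq2 48 genes, and leaving out 1 pool at a time 1214 (day 7), 519 (day 3), 94 (day 1) and 0 genes (no injury) and 0 to 1 members, with 1 residual degree of freedom. For the contralateral comparison, with 20 genes called, no filter gave 54 and DESeq2 64, and leaving out 1 library 12 (contralateral day 1), 13 (contralateral day 3) or up to 21. The sign turned only for small values and for the slope of Arg1: for the injury effect Sms against the uninjured libraries alone (0.037) and Amd1 there (-0.12), with no replicate block (-0.040) and without day 3 (-0.056); for the slopes without day 7, Arg1 (1.01), Srm (0.021), Amd1 (0.12) and Sat1 (0.080); for the contralateral value of Srm, RLE and DESeq2 (0.011 each), without contralateral day 1 (0.085) and without the right uninjured library (0.055), against -0.055 without the left one. The cause was not tested. The 3 member side ratios of 2-fold or more stayed 3 with a prior count of 0.5 and without TMM factors. Depth limits Arg1 in the uninjured pool (9 reads in all).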

Other observations

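A few pathway genes had injured libraries outside the range of all others without passing the edgeR test. Over all genes tested, the 3 injured libraries lay above all 5 others in 11.5% and below them in 12.9%, whether called or not. Atp13a4, a relative of the polyamine transporter genes, was at 1.37, 0.709 and 0.805 CPM in the injured libraries of days 1, 3 and 7 and at 0.277 to 0.659 CPM in the 5 other libraries (log2 0.85 ± 0.33, SE; adjusted p = 0.11). Oaz1 was at 18.7 to 20.4 CPM in injured libraries and 20.6 to 23.2 CPM elsewhere, and the methionine salvage gene Adi1 at 11.0 to 13.2 against 14.3 to 16.3 CPM (log2 -0.29 ± 0.08; adjusted p = 0.0517). Slc22a3, an organic cation transporter gene, was at 1.18 to 1.71 CPM in injured libraries, 1.93 to 2.34 CPM on the contralateral side and 3.47 and 2.59 CPM without injury. These genes were chosen after their values were seen.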
